A study of Mus musculus with 10 samples.

Results

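Chemokines are small secreted proteins that attract leukocytes along a gradient, and their receptors are cell surface proteins that couple to G proteins. A set of 37 such genes was read in regenerating muscle of mice with and without miR-501 in the myogenic lineage. The genes were chosen by symbol, not by their values: every protein-coding gene named as a *Ccl*, *Cxcl*, *Cx3cl1* or *Xcl1* ligand, as a *Ccr*, *Cxcr*, *Cx3cr1* or *Xcr1* receptor or as an *Ackr* atypical receptor, with at least 10 counts in at least 5 of the 10 mice. Of 66 such genes among the 25700 genes counted, 37 met the minimum, namely 22 of 44 ligand genes, 11 of 18 receptor genes and 4 of 4 atypical receptor genes. For comparison, 14185 protein-coding genes met the same minimum.

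The samples were tibialis anterior (TA) muscles from C57BL/6 males aged 12 weeks, taken at day 6 after injection of cardiotoxin (CTX), a snake venom toxin that destroys fibers and starts regeneration. The 5 control mice are titled Pax7Cre and carry the genotype label wild type. The other 5 mice are titled miR-501KO and labelled miR-501 -/-, and the design text gives them as Pax7Cre with a floxed miR-501 allele on their single X chromosome. Both groups therefore carry the Cre. It is expressed from *Pax7*, the gene of muscle stem cells, so the deletion is carried by the myogenic lineage and leukocytes, endothelium and connective tissue cells keep the miRNA. The RNA came from the whole muscle, where a change in the number of cells of a type cannot be told apart from a change of RNA per cell. Each library came from 1 mouse and held between 18609222 and 24753258 counts. Along the first principal component, with 36.5% of the variance, Pax7Cre mouse 2 lay at 39.4 and Pax7Cre mouse 4 at -25.6. Their summed mature fiber genes were also the highest and the lowest, at 64373 and 26129 CPM, the counts of a gene scaled to a common library size, against 33861 to 49407 in the other 8 mice.

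Early after muscle injury, CC ligands such as *Ccl2* draw monocytes from blood into the tissue through *Ccr2*. Those cells turn into macrophages that clear debris and later express *Cx3cr1*. CXC ligands with a glutamate-leucine-arginine motif, such as *Cxcl1*, attract neutrophils, interferon-inducible *Cxcl9* and *Cxcl10* attract T and NK cells through *Cxcr3*, and *Cxcl12* retains and guides *Cxcr4*-bearing cells. Atypical receptors bind ligands without G protein signalling and remove or transport them. The markers of the responding cells were present: the 11 macrophage genes summed to 5045 to 7125 CPM in the Pax7Cre mice and to 5315 to 6272 CPM in the miR-501KO mice, and none of the 11 passed an unadjusted p of 0.05. Neutrophil genes summed to only 32.0 to 38.9 and 29.985 to 38.3 CPM, T cell genes to 41.8 to 64.1 and 33.96 to 53.7 CPM, and NK cell genes to 22.7 to 50.1 and 24.8 to 39.6 CPM. Of the eosinophil genes, the granule protein gene *Epx* was listed at 0 in all mice.

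Because the deleted miRNA pairs with 3′ untranslated regions (3′ UTRs), its sequence is shown with the matching sites in the set. The RefSeq sequence of mature miR-501-3p (GRCm38.p6, chrX:7241270-7241291, minus strand) is given with the seed, bases 2 to 8, in capitals.
miR-501-3p: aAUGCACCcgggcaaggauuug
The reverse complement of the seed, GGTGCAT, occurred in an annotated 3′ UTR of 3 of the 37 genes (8.11%), compared with 1052 of 13989 tested genes with an annotated 3′ UTR (7.52%). The sites of *Ackr3* and *Ccl24* are printed on the gene's strand with the seed match in capitals.
*Ackr3*: aggtcagaggtaGGTGCATttcaatggctg
*Ccl24*, first site: catcagagcccaGGTGCATgagccccgagt
*Ccl24*, second site: actaggcatgatGGTGCATgcctaagaaga
On GRCm38 the 7 capital bases of *Ackr3* lie at chr1:90215967-90215973 on the plus strand and those of *Ccl24* at chr5:135570519-135570525 and chr5:135570174-135570180 on the minus strand. None of the sites printed here is followed by an A, the base opposite the first base of the miRNA. The log2 fold changes, miR-501KO over Pax7Cre, were 0.00 for *Ackr3* and 0.07 for *Ccl24*. *Ccl24*, which attracts eosinophils, was at 2.02 ± 0.373 CPM in Pax7Cre and at 2.13 ± 0.544 CPM in miR-501KO (SD, n = 5), and *Ackr3* is described with the atypical receptors.

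Interferon and NF-κB signalling are known inducers of many chemokine genes, so the promoters were searched for the matching elements, from 250 bases before to 50 bases after the RefSeq start (GRCm38.p6). A promoter sequence was matched for 28 of the 37 genes. The interferon-stimulated response element core, GAAANNGAAA on either strand, was in 2 of the 28 (7.14%), *Cxcl10* and *Cxcl14*. It was in 3.99% of all 27025 genes with a promoter sequence, which were not limited to those meeting the count minimum. The gamma-activated site core, TTCNNNGAA on either strand, was in 1 of the 28 (3.57%), *Cxcl14*, and in 9.55% of the 27025 genes. The NF-κB consensus was in 9 of the 28 (32.1%) and in 11.8% of the 27025 genes. The 9 were *Ackr1*, *Ackr2*, *Ccl27a*, *Ccl9*, *Cxcl1*, *Cxcl10*, *Cxcl14*, *Ccr1* and *Ccr3*. Those of *Cxcl10* and *Cxcl1* are printed because both genes are among the 3 with the largest positive genotype differences. The motif is in capitals on the gene's strand.
*Cxcl10*, interferon element: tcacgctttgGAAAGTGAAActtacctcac
*Cxcl10*, NF-κB upstream: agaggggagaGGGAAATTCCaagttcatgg
*Cxcl10*, NF-κB downstream: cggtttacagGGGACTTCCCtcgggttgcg
*Cxcl1*, NF-κB: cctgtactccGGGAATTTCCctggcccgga
The *Cxcl10* windows are chr5:92349083-92349112, chr5:92349029-92349058 and chr5:92348973-92349002 on the minus strand, and the *Cxcl1* window is chr5:90891164-90891193 on the plus strand. The motifs begin at -213, -159, -103 and -71 from the start. The promoter of *Cxcl9* was matched and held none of these letters in this window. A match is a description and not a binding site.

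Levels are compared between genes only per length, as TMM-normalized counts per kilobase of exon, relative to library size (CPM per kilobase), averaged over the 10 mice. Among the ligands, *Ccl8*, a monocyte attractant of the *Ccl2* cluster, stood at 137 CPM per kilobase, with 77.0 to 223 over the mice. It was above every other gene of the set in each mouse, since the highest single value of any other gene was 55.8, for *Cxcl14*. *Cxcl16*, a membrane-bound ligand, had a mean of 41.0, *Ccl6* 32.4, *Cxcl14* 29.8, *Ccl5* 28.0 and *Cxcl12* 26.9 CPM per kilobase. *Cxcl16* was above *Ccl6* and *Cxcl12* in every mouse. The order of *Ccl6*, *Cxcl14*, *Ccl5* and *Cxcl12* differed between mice and is not resolved. Between 11.1 and 17.4 CPM per kilobase came *Ccl11*, *Ccl12*, *Cxcl9*, *Ccl7*, *Ccl9*, *Ccl2* and *Ccl3*, followed by *Cxcl10* at 8.73, *Xcl1* at 7.27, *Ccl4* at 5.42, *Cx3cl1* at 4.21 and *Ccl22* at 4.01. The lowest were *Ccl27a*, *Ccl24*, *Ccl25* and the neutrophil attractant *Cxcl1*, at 2.66, 1.61, 0.933 and 0.436 CPM per kilobase.

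The receptor order was led by *Cxcr4*, the receptor of *Cxcl12*, at 32.3 CPM per kilobase with a range of 29.3 to 37.6. The monocyte receptor *Ccr2* and the macrophage receptor *Cx3cr1* followed, both at 10.9 CPM per kilobase. Lower were *Ccr7* at 4.67, *Cxcr3* at 3.34, *Ccr1* at 2.78, *Xcr1* at 1.39, *Cxcr6* at 0.948, *Ccr9* at 0.186 and the eosinophil receptor *Ccr3* at 0.163. The ranges of *Ccr2* and *Cx3cr1* overlapped. Of the atypical receptors, *Ackr3* (6.21) and *Ackr1* (3.90) were above *Ackr2* (0.330) and *Ackr4* (0.126 CPM per kilobase) in every mouse. The strand setting of the counting is not given in the sources used here, so reads of overlapping genes may be mixed. Exons overlap for *Ackr1* with *Cadm3* on the same strand, and on the opposite strand for *Ccr9* with *Slc6a20a*, *Ackr4* with *Acad11*, *Ccl25* with *Elavl1*, *Ccl27a* with *Il11ra1*, *Cxcl10* with *Art3* and *Cxcl16* with *Zmynd15*.

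**Figure D1:**
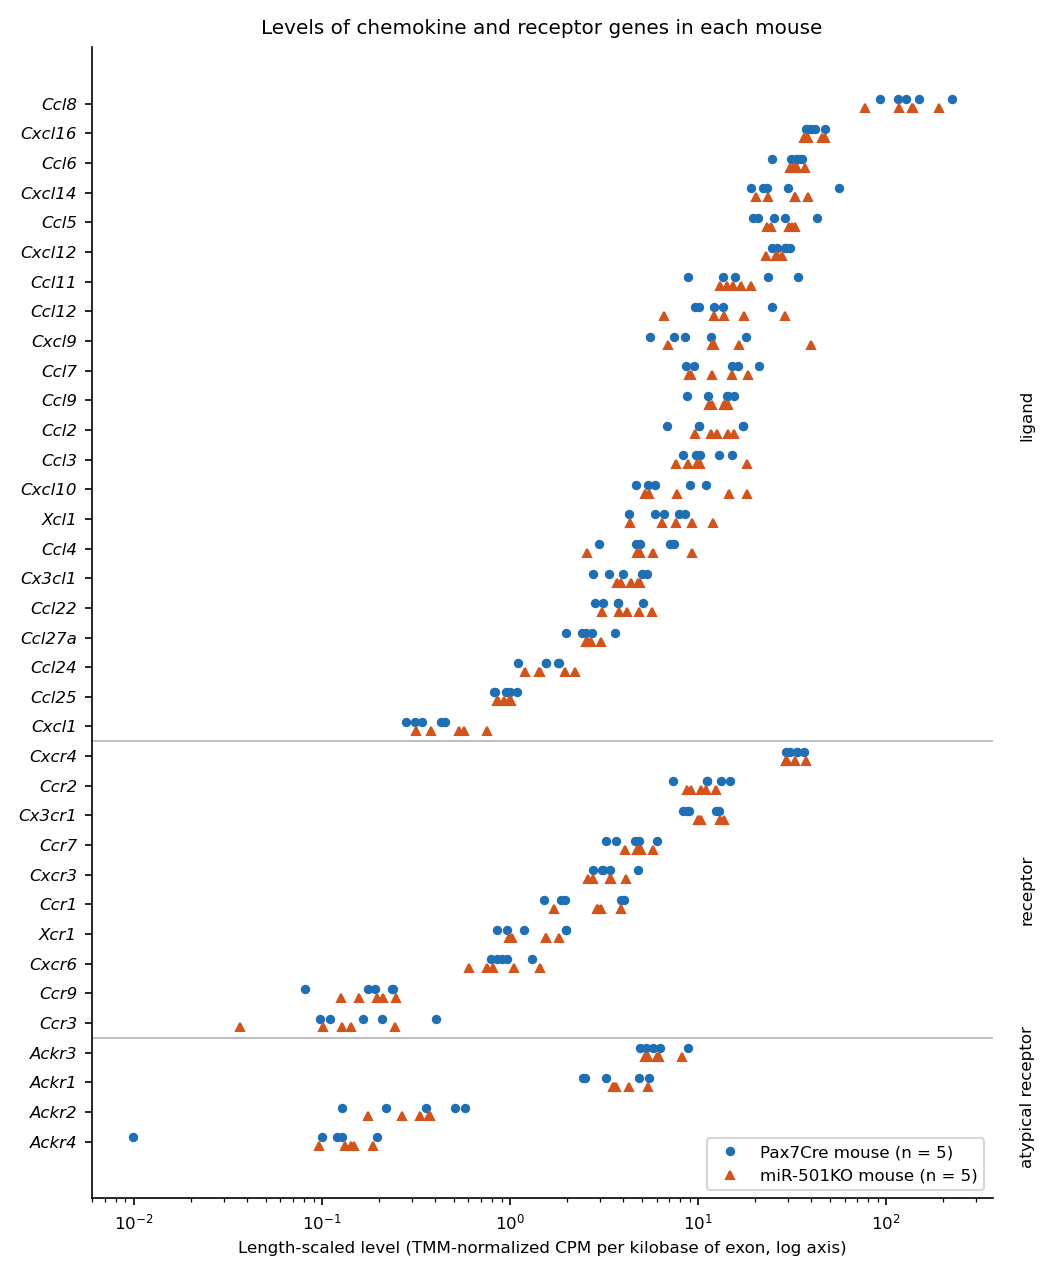
Level of 36 of the 37 genes in each mouse, as TMM-normalized CPM per kilobase of exon on a log axis; circles are the 5 Pax7Cre and triangles the 5 miR-501KO mice, and genes are ordered by mean level within ligands, receptors and atypical receptors. *Ccl8* leads the ligands at a mean of 137, *Cxcr4* the receptors at 32.3 and *Ackr3* the atypical receptors at 6.21, and the 2 genotypes overlap for every gene shown.

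Several genes of neutrophil and B cell traffic were among the 29 that missed the minimum. The neutrophil ligands *Cxcl2* and *Cxcl5* had 2 to 10 and 1 to 12 counts per mouse, and their receptor *Cxcr2* had 1 to 11. The B cell pair *Cxcl13* and *Cxcr5* had 2 to 9 and 4 to 20 counts, and *Ccr4*, the receptor of *Ccl22*, had 1 to 7. Nearest to the limit were *Ccl17* and *Cxcr5* just outside it, each with at least 10 counts in 3 mice, and *Ccr3* just inside it, with at least 10 counts in 6 mice. Another 12, all ligand genes, were listed at 0 in all mice, among them the listed copies of *Ccl21a*, *Ccl21b* and *Ccl21c*, which are near-identical. How reads that match several copies were counted is not given in the sources used here, so these zeros are uncertain.

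Ligands and receptors known to bind each other were set side by side on the same per-length scale. *Cxcl12* (26.9) and *Cxcr4* (32.3) were at similar levels, with their scavenger *Ackr3* at 6.21 CPM per kilobase. *Cx3cl1*, the membrane-bound ligand of *Cx3cr1*, was at 4.21 and its receptor at 10.9. *Ccr2* at 10.9 faced *Ccl2* at 12.5, *Ccl7* at 13.4, *Ccl12* at 14.9 and *Ccl8* at 137. *Ccl8* was also paired with *Ccr8*, which missed the minimum, with 0 to 6 counts per mouse. For other pairs the receptor was far lower: *Cxcl16* stood at 41.0 against *Cxcr6* at 0.948, *Ccl11* at 17.4 against *Ccr3* at 0.163, and *Xcl1* at 7.27 against *Xcr1* at 1.39 CPM per kilobase. *Ccl5* at 28.0 faced *Ccr1* at 2.78. Transcript levels of different genes do not give protein levels.

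The study asked which genes change when miR-501 is deleted. For none of the 37 genes was a difference between the genotypes detected. In the edgeR quasi-likelihood test over all 14410 genes passing the count filter, which included all 37, the smallest adjusted p of the set was 1.00, and 0 of all genes (0%) passed an adjusted p of 0.05. At an unadjusted p of 0.05, 0 of the 37 were higher and 0 lower in miR-501KO, compared with 0.382% and 0.666% of all genes tested, 1.05% in either direction. At an unadjusted p of 0.01 there were 0 of the 37 and 0.0625% of all genes. The 5 miR-501KO values lay wholly above the 5 Pax7Cre values for 0 of the 37 genes (0.0625% of all genes) and wholly below for 0 (0.0763%), 0.139% of all genes in either direction. The smallest unadjusted p of the set was 0.0913 in edgeR, for *Cxcl9*, and 0.111 in the exact two-sided permutation test, for *Cxcl1*. The smallest p that this permutation test can give with 5 mice against 5 is 0.00794.

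In size, the differences were small for most of the set. The log2 fold changes ran from -0.62 for *Ccr3* to 0.77 for *Cxcl9*, with a median of 0.02 against -0.0042 over all genes tested. They lay within 0.25 of 0 for 30 of the 37 genes. Those above 0 were 23 of 37 (62.2%), compared with 47.9% of all genes tested, and comprised 15 of 22 ligands, 5 of 11 receptors and 3 of 4 atypical receptors. Past 0.5 in either direction were 3 of 37 (8.11%), *Cxcl9*, *Cxcl10* and *Ccr3*, compared with 1.28% of all genes. These shares have no test. For 31 genes the 95% interval of the difference lay within 2-fold in both directions, and for 20 genes within 1.5-fold.

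**Figure D2:**
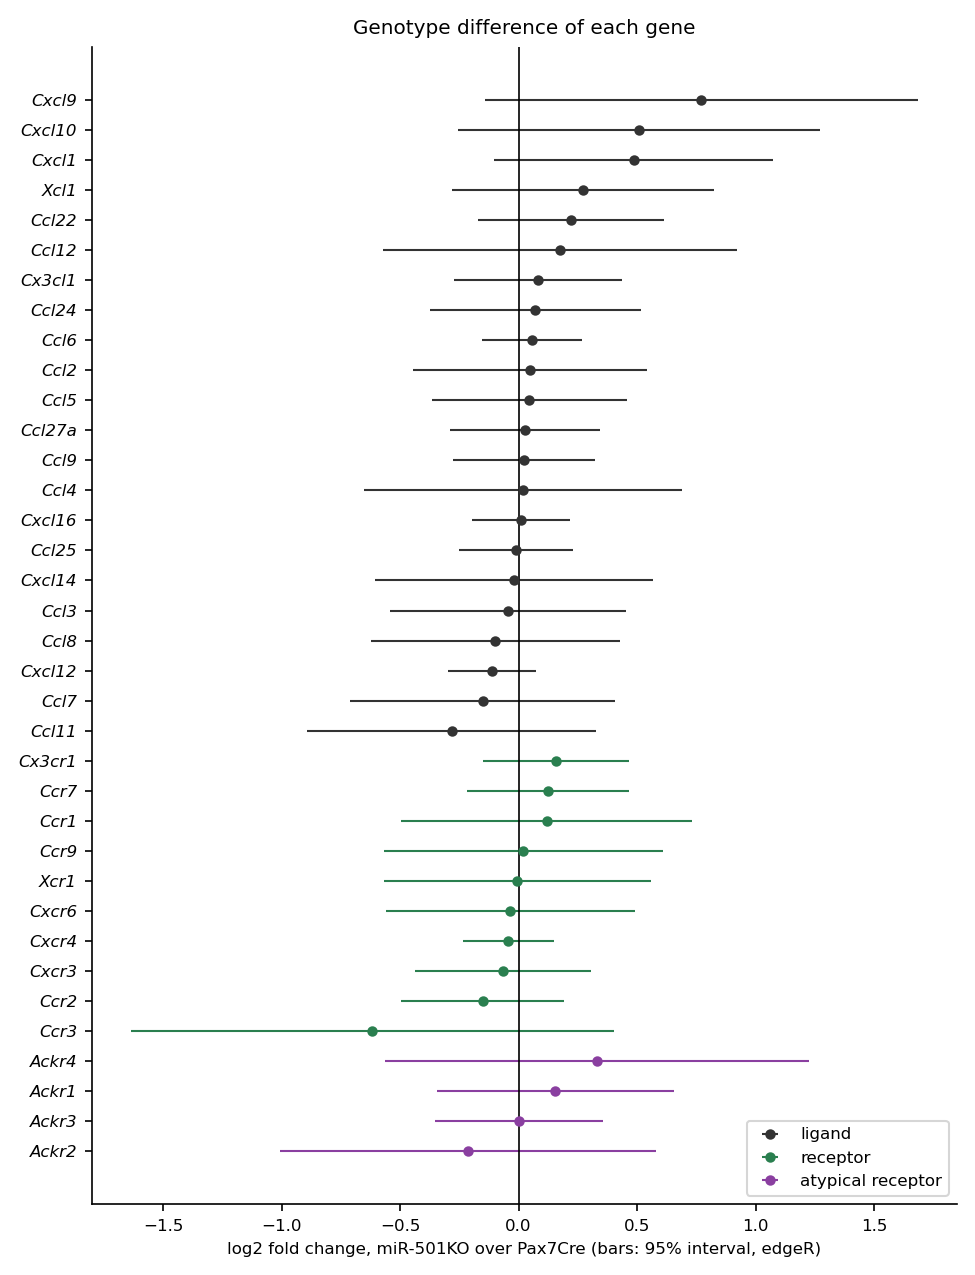
Log2 fold change of 36 of the 37 genes, miR-501KO over Pax7Cre (n = 5 mice each), from the edgeR quasi-likelihood fit; points are estimates, bars are 95% intervals and colors mark ligands, receptors and atypical receptors. Every interval includes 0, and the estimates run from -0.62 for *Ccr3* to 0.77 for *Cxcl9*.

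Summed over the ligands, the total was 759 ± 74.6 CPM (SD, n = 5) in the Pax7Cre mice and 769 ± 64.9 CPM (n = 5) in the miR-501KO mice, a ratio of 1.01. *Cxcl12* took 28.8% of these reads. The receptors summed to 256 ± 31.5 and 253 ± 26.2 CPM, a ratio of 0.988, with 28.9% of the reads on *Ccr2*. The atypical receptors summed to 27.7 ± 7.69 and 28.3 ± 5.39 CPM, a ratio of 1.02, with 74.3% of the reads on *Ackr3*. In all 3 sums the genotypes overlapped and the difference of the means was below either SD.

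*Cxcl9*, a ligand of *Cxcr3* induced by interferon gamma and located at chr5:92321347-92328079 beside *Cxcl10* (chr5:92346638-92348889), had the largest difference of the set. In the Pax7Cre mice 1 to 5 it was at 54.2, 35.2, 25.7, 16.6 and 22.3 CPM. In the miR-501KO mice it was at 119, 35.8, 49.6, 20.8 and 36.5 CPM. The highest value was that of miR-501KO mouse 1, and the other 4 miR-501KO mice lay within the range of the Pax7Cre mice. The means were 30.8 ± 14.7 and 52.4 ± 38.8 CPM (SD, n = 5), with a log2 fold change of 0.77 (SE 0.42) and a fold interval of 0.906 to 3.21. The edgeR p was 0.0913 and the exact permutation p 0.310. Without miR-501KO mouse 1 the log2 fold change fell to 0.22, with an edgeR p of 0.506. With 1 mouse left out, *Cxcl9* passed an unadjusted p of 0.05 only without Pax7Cre mouse 1 (log2 fold change 1.08, edgeR p 0.0288) or without miR-501KO mouse 4 (0.97, edgeR p 0.0288). It also passed with a replicate block, given in the closing section. The likelihood ratio test of edgeR with a trended dispersion, which does not use this gene's own spread, gave an adjusted p of 1.34e-06, whereas every other setting tried gave an adjusted p between 0.983 and 1.00.

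*Cxcl10*, the second *Cxcr3* ligand, with the interferon element printed above, was also highest in mouse 1 of each genotype. It was at 24.9, 12.2, 20.4, 13.3 and 10.5 CPM in the Pax7Cre mice and at 40.9, 17.3, 32.9, 11.8 and 12.3 CPM in the miR-501KO mice. Mice 1 and 3 of the miR-501KO group were above all Pax7Cre mice, and the other 3 were within their range. The means were 16.3 ± 6.12 and 23.1 ± 13.2 CPM, with a log2 fold change of 0.51 (SE 0.35), an edgeR p of 0.175 and an exact permutation p of 0.357. Without miR-501KO mouse 1 the log2 fold change was 0.20. *Cxcr3*, their receptor on T and NK cells, was at 5.92 ± 1.38 CPM in Pax7Cre and 5.64 ± 1.07 CPM in miR-501KO, with a log2 fold change of -0.07 and an edgeR p of 0.707.

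Other values of miR-501KO mouse 1 are given beside these, and *Irf1* and *Tnf* were named after their values were seen. *Irf1*, a transcription factor induced by interferon, was at 95.7 CPM in that mouse, against 50.2 to 77.3 CPM in the other 9 mice, and *Tnf* at 4.80 CPM against 2.08 to 3.40 CPM. Pax7Cre mouse 1 was the highest control mouse for both, at 77.3 and 2.96 CPM. In miR-501KO mouse 1, *Nfkbia* (46.7 CPM) was also the highest of all mice, whereas *Il1b* (3.60 CPM) and *Il10* (1.52 CPM) were not. *Xcl1*, a ligand made by NK cells and CD8+ T cells, was also highest there, at 6.24 CPM against 2.25 to 4.86 CPM. The summed NK cell markers of this mouse were 39.6 CPM, the second highest of the 10 mice, with 50.1 CPM in Pax7Cre mouse 2 and 22.7 to 32.25 CPM in the other 8. Its summed T cell markers were 46.1 CPM, the third lowest of 33.96 to 64.1 CPM over the mice. *Ifng* itself did not pass the filter on low counts. Neither *Irf1* (log2 fold change 0.10, edgeR p 0.564) nor *Tnf* (0.36, edgeR p 0.133) passed the test between genotypes, and the part of any of these in the *Cxcl9* value was not tested.

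**Figure D3:**
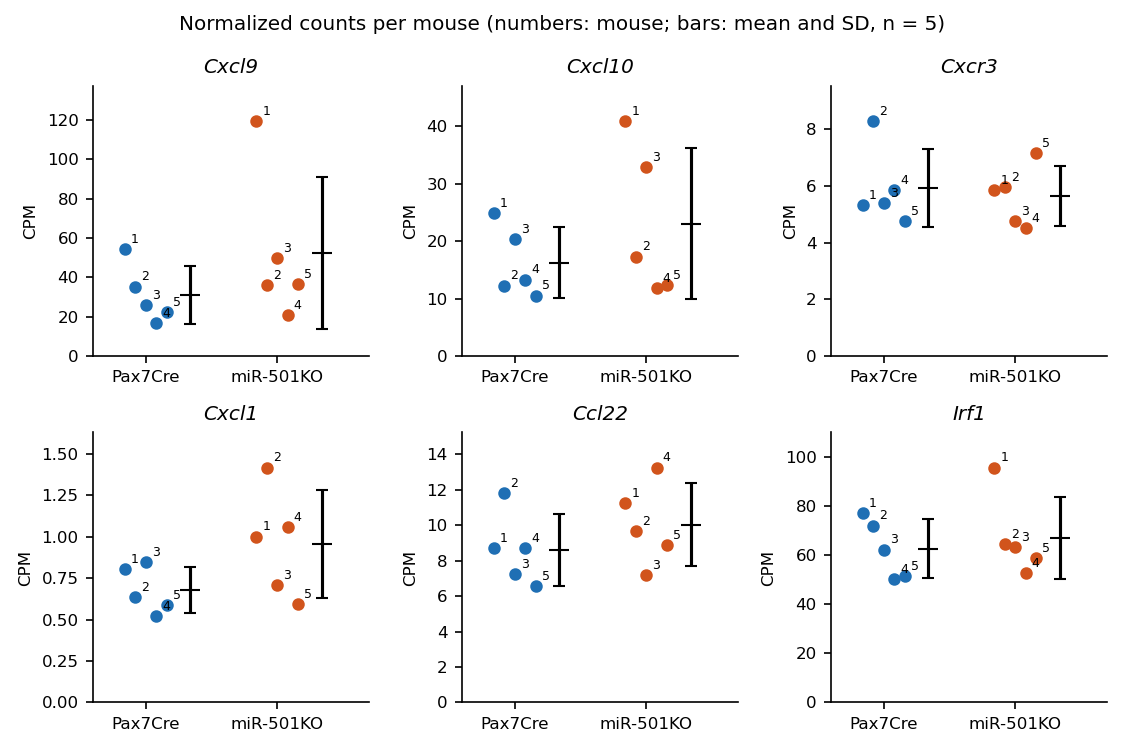
CPM per mouse of *Cxcl9*, *Cxcl10*, their receptor *Cxcr3*, *Cxcl1*, *Ccl22* and *Irf1*; each point is a mouse with its number, and bars are the mean and SD of 5 mice. The highest *Cxcl9* (119), *Cxcl10* (40.9) and *Irf1* (95.7) values belong to the same animal, miR-501KO mouse 1, while *Cxcr3* of that mouse lies among the others.

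*Cxcl1*, the neutrophil attractant, had the second smallest edgeR p and the smallest exact permutation p of the set. Its values were 0.806, 0.633, 0.845, 0.521 and 0.588 CPM in the Pax7Cre mice and 1.00, 1.42, 0.708, 1.06 and 0.593 CPM in the miR-501KO mice. The miR-501KO mice 1, 2 and 4 were above all Pax7Cre mice. The means were 0.679 ± 0.141 and 0.955 ± 0.323 CPM, with a log2 fold change of 0.49 (SE 0.27), a fold interval of 0.932 to 2.11, an edgeR p of 0.0973 and an exact permutation p of 0.111. It passed an unadjusted p of 0.05 without miR-501KO mouse 5. These values rest on 12 to 30 counts per mouse, and the spread between mice of one genotype, a coefficient of variation (CV) of 30.5%, was close to the 23.8% that counting alone gives.

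The *Ccl2* cluster on chromosome 11 holds *Ccl2* (82035571 to 82037453), *Ccl7*, *Ccl11*, *Ccl12* and *Ccl8* (82115185 to 82116799) in this order. *Ccl2*, the main monocyte attractant, was at 19.6, 7.81, 11.5, 19.6 and 11.5 CPM in the Pax7Cre mice and at 17.6, 10.996, 16.4, 14.4 and 13.2 CPM in the miR-501KO mice. The miR-501KO mice lay within the Pax7Cre range. Its log2 fold change was 0.05 (SE 0.23), and its fold interval of 0.735 to 1.46 leaves out a change of 1.5-fold in either direction. *Ccl8* was at 114, 59.3, 75.9, 65.2 and 47.3 CPM in Pax7Cre and at 97.5, 71.3, 70.1, 39.4 and 59.4 CPM in miR-501KO. Of the miR-501KO mice, 4 were within the Pax7Cre range, and the log2 fold change was -0.10 (SE 0.24) with a fold interval of 0.649 to 1.35.

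*Ccl11*, or eotaxin, which attracts eosinophils and is made by connective tissue cells, had one of the 3 smallest p-values among the genes with a negative difference. It was at 16.9, 36.8, 25.6, 9.59 and 14.7 CPM in the Pax7Cre mice and at 14.1, 15.4, 18.2, 20.8 and 16.5 CPM in the miR-501KO mice. The Pax7Cre mice spread 3.84-fold and enclosed all miR-501KO mice. The log2 fold change was -0.28 (SE 0.28, edgeR p 0.336), and without Pax7Cre mouse 2 it was 0.03. *Ccl7* (11.3 ± 4.07 and 10.2 ± 3.28 CPM) and *Ccl12* (7.55 ± 3.33 and 8.48 ± 4.49 CPM) had log2 fold changes of -0.15 and 0.17.

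A second cluster on chromosome 11 holds *Ccl5* (83525778 to 83530518), *Ccl9*, *Ccl6*, *Ccl3* and *Ccl4* (83662584 to 83664683). *Ccl5*, a T cell and macrophage product, was at 27.8, 41.2, 20.1, 24.2 and 18.9 CPM in Pax7Cre and at 30.2, 29.1, 22.2, 23.5 and 31.3 CPM in miR-501KO mice. *Ccl6* was at 61.5, 64.2, 59.4, 55.8 and 44.3 CPM in Pax7Cre and at 59.997, 58.3, 56.9, 66.1 and 55.1 CPM in miR-501KO mice. The highest *Ccl5* value was that of Pax7Cre mouse 2, and the lowest of both genes that of Pax7Cre mouse 5. Their log2 fold changes were 0.05 (SE 0.19) and 0.06 (SE 0.10). *Ccl9* (39.1 ± 8.35 and 39.7 ± 4.13 CPM), *Ccl3* (8.64 ± 2.10 and 8.37 ± 3.19 CPM) and *Ccl4* (3.57 ± 1.22 and 3.58 ± 1.60 CPM) had log2 fold changes of 0.02, -0.04 and 0.02.

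Of the homeostatic ligands, *Cxcl12* (chr6:117168535-117181367) was the most precisely measured gene of the set, with 4320 to 5363 counts per mouse. It was at 202, 236, 250, 215 and 240 CPM in the Pax7Cre mice and at 188, 215, 211, 229 and 214 CPM in the miR-501KO mice. The means were 229 ± 19.4 and 212 ± 14.7 CPM, and 4 of the 5 miR-501KO mice lay within the Pax7Cre range. The log2 fold change was -0.11 (SE 0.09), with a fold interval of 0.814 to 1.05, an edgeR p of 0.211 and an exact permutation p of 0.167. *Cxcl14*, made by fibroblasts and epithelia, was at 34.8, 102, 54.6, 40.4 and 42.2 CPM in Pax7Cre and at 37.3, 59.9, 42.9, 70.1 and 60.1 CPM in miR-501KO. The value of Pax7Cre mouse 2 decided its difference: the log2 fold change was -0.02 (SE 0.27) with all mice and 0.33 without that mouse.

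The membrane-bound ligands overlapped widely between genotypes. *Cxcl16* (chr11:70453983-70459984) was at 142, 114, 125, 121 and 114 CPM in the Pax7Cre mice and at 142, 138, 110, 115 and 116 CPM in the miR-501KO mice. Its log2 fold change was 0.01 (SE 0.10), with a fold interval of 0.872 to 1.16. *Cx3cl1* was at 13.2, 10.9, 15.6, 21.1 and 19.6 CPM and at 17.2, 15.3, 18.8, 14.5 and 19.3 CPM, a log2 fold change of 0.08 (SE 0.16). The remaining ligands, *Xcl1*, *Ccl22*, *Ccl24*, *Ccl25* and *Ccl27a*, had log2 fold changes between -0.01 and 0.27. *Ccl22*, a dendritic cell product at 8.60 ± 2.02 and 10.04 ± 2.32 CPM, had a log2 fold change of 0.22 and an edgeR p of 0.248. It passed an unadjusted p of 0.05 when Pax7Cre mice 2 and 4 were both left out.

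Among the receptors, *Ccr2* (chr9:124101950-124113557) on monocytes was at 74.8, 99.3, 88.9, 75.7 and 49.4 CPM in the Pax7Cre mice and at 83.9, 62.0, 58.9, 74.3 and 70.1 CPM in the miR-501KO mice. All miR-501KO mice were within the Pax7Cre range. The log2 fold change was -0.15 (SE 0.16, edgeR p 0.358). Without Pax7Cre mouse 5, the lowest, it was -0.28 and passed an unadjusted p of 0.05. *Cx3cr1* on macrophages was at 57.8, 40.3, 39.4, 56.0 and 37.5 CPM and at 58.9, 46.7, 45.1, 45.6 and 61.4 CPM, a log2 fold change of 0.16 (SE 0.14, edgeR p 0.292). *Cxcr4* was at 60.8, 55.6, 53.3, 60.5 and 65.9 CPM and at 59.2, 68.0, 53.2, 53.9 and 53.0 CPM. Its log2 fold change was -0.04 (SE 0.09) and its fold interval 0.850 to 1.11, the narrowest among the receptors.

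*Ccr3*, with 3 to 25 counts per mouse, was at 0.358, 1.32, 0.317, 0.682 and 0.539 CPM in the Pax7Cre mice and at 0.120, 0.330, 0.416, 0.795 and 0.466 CPM in the miR-501KO mice, and the groups overlapped. Its log2 fold change of -0.62 (SE 0.47, edgeR p 0.213) was the lowest of the set, and it became 0.03 when Pax7Cre mice 2 and 4 were left out. The log2 fold changes of *Ccr1*, *Ccr7*, *Ccr9*, *Cxcr6* and *Xcr1* were between -0.04 and 0.12. *Ccr7*, which guides dendritic cells to lymph nodes, was at 8.83 ± 2.15 and 9.62 ± 1.18 CPM.

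The atypical receptors were led by *Ackr3*, the scavenger of *Cxcl12*, at 19.3, 29.7, 21.03, 17.7 and 16.4 CPM in the Pax7Cre mice and at 20.6, 18.1, 20.3, 27.5 and 17.4 CPM in the miR-501KO mice. Its log2 fold change was 0.00 (SE 0.16), with a fold interval of 0.782 to 1.28. *Ackr1*, which carries ligands across venular endothelium, was at 4.57, 7.70, 6.76, 3.41 and 3.53 CPM and at 6.04, 4.96, 5.16, 7.63 and 5.00 CPM. *Ackr2*, a scavenger of inflammatory CC ligands, was at 1.12, 1.79, 1.58, 0.401 and 0.686 CPM and at 1.16, 1.04, 0.833, 1.17 and 0.551 CPM. All 4 atypical receptors were highest in Pax7Cre mouse 2. *Ackr4*, which removes *Ccl19*, *Ccl21* and *Ccl25*, was at 0.537, 1.06, 0.0528, 0.642 and 0.686 CPM and at 0.520, 0.708, 0.791, 1.01 and 0.763 CPM, and the value of Pax7Cre mouse 3 is a single count. The log2 fold changes of *Ackr1*, *Ackr2* and *Ackr4* were 0.15 (SE 0.23), -0.21 (SE 0.37) and 0.33 (SE 0.41). Leaving out 1 mouse moved *Ackr1* between 0.03 (without Pax7Cre mouse 4) and 0.34 (without Pax7Cre mouse 2), and *Ackr4* between 0.06 (without Pax7Cre mouse 3, the single count) and 0.61 (without Pax7Cre mouse 2).

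The spread between mice of one genotype is given as a description, with no test. The median CV of the set within genotype was 29.1%, compared with 13.0% over all genes tested, and it was above 30% for 17 and below 20% for 10 of the 37. *Cxcl9* varied most, with a CV of 70.5% where counting gives 3.26%, followed by *Ccr3* at 62.7% (counting 29.7%), *Cxcl10* at 52.2% and *Ccl12* at 49.3%. The steadiest were *Cxcl12* at 7.83%, *Cxcr4* at 9.83%, *Ccl25* at 10.2%, *Ccl6* at 10.7% and *Cxcl16* at 10.8%. For 9 genes some mouse had fewer than 50 counts.

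**Figure D4:**
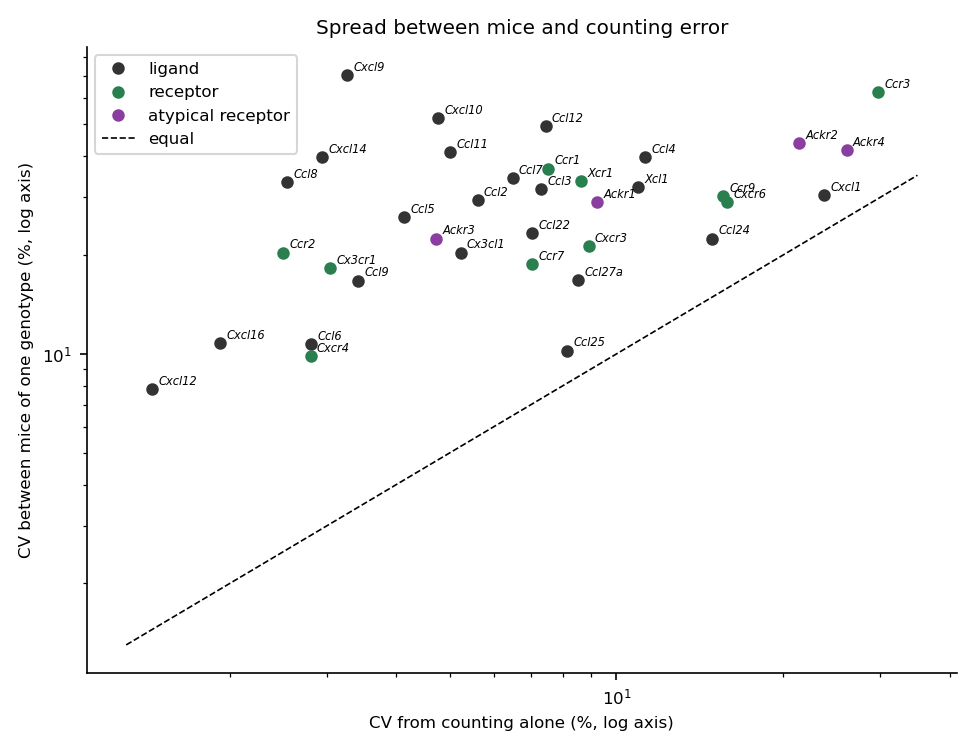
CV between mice of one genotype against the CV that counting alone gives, in percent, both on log axes; each point is 1 of 36 genes, and the dashed line marks equal values. *Cxcl9* lies farthest above the line at 70.5% against 3.26%, while *Cxcl1* at 30.5% against 23.8% and *Ccl25* at 10.2% against 8.14% lie close to it.

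The high and the low mice were not the same for all genes. Pax7Cre mouse 2 was the highest of the 10 for 14 of the 37 genes (37.8%), among them *Cxcl14*, *Ccl11*, *Ccl5*, *Ccr2*, *Cxcr3*, *Xcr1* and the 4 atypical receptors, where it was the highest for 23.3% of all genes tested. The same mouse was the lowest for 5 genes, *Ccl2*, *Ccl7*, *Ccl24*, *Cx3cl1* and *Ccr1*. It also had the highest sums of NK cell (50.1 CPM), T cell (64.1 CPM), dendritic cell (57.5 CPM), endothelial (755 CPM) and mature fiber markers. Its sums of macrophage (5045 CPM), monocyte (173 CPM) and fibro-adipogenic progenitor markers (13524 CPM) were the lowest. The part of these cells in the values of Pax7Cre mouse 2 was not tested. Pax7Cre mouse 5 was the highest for 0 genes and the lowest for 11 (29.7%), against 6.35% of all genes tested. The 11 include *Ccr2*, *Cx3cr1*, *Ccr7*, *Ccl5*, *Ccl6* and *Ccl9*. The median log2 deviation of the 37 genes from their own means was -0.29 in that mouse and between -0.05 and 0.17 in the other 9. This mouse also had the lowest sums of NK cell (22.7 CPM) and B cell markers (4.21 CPM) and the second lowest of dendritic cell markers (39.2 CPM). Its macrophage sum of 5447 CPM was within the range of the others, and its fibro-adipogenic progenitor sum was the highest, at 18565 CPM. The part of these cells in its values was not tested.

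**Figure D5:**
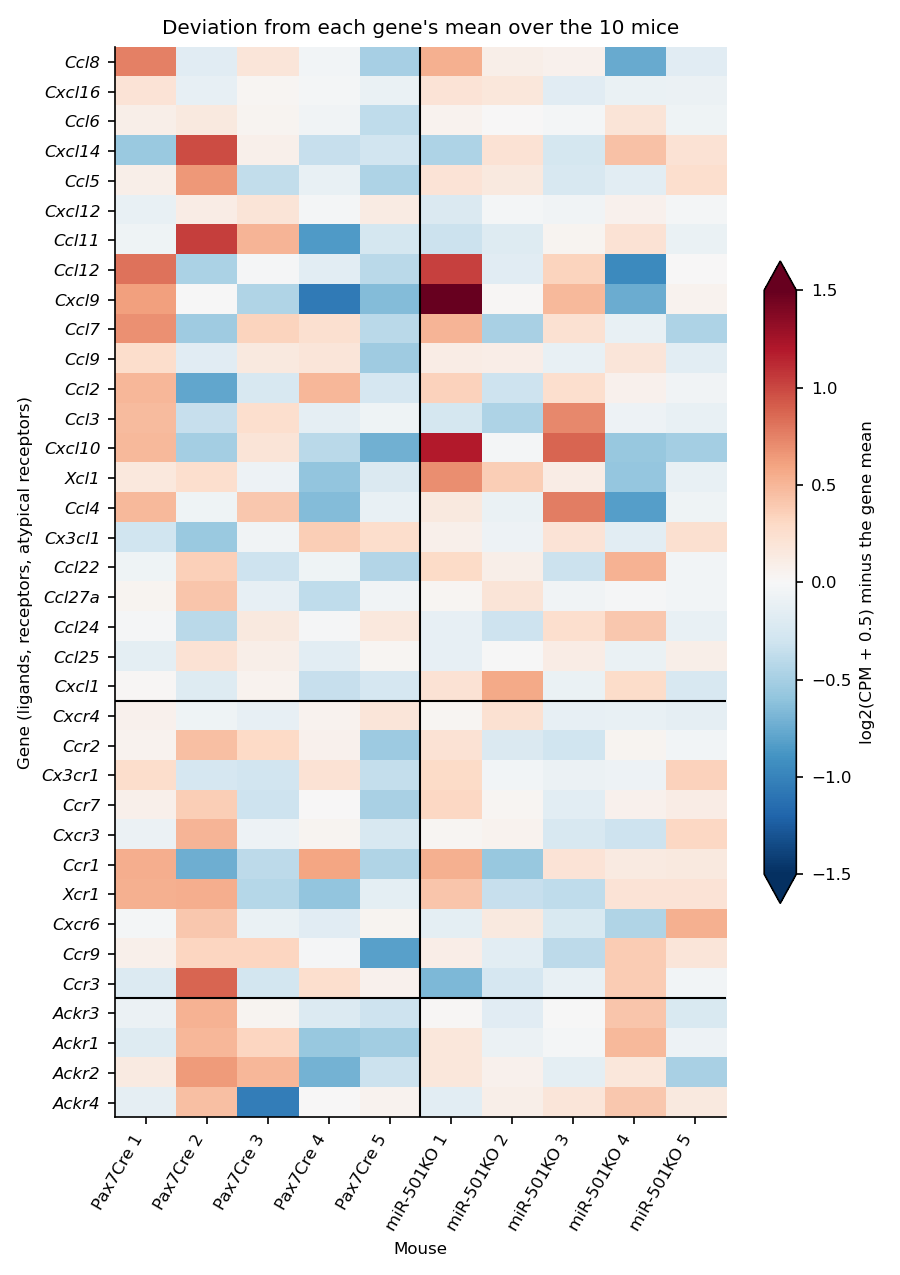
Deviation of each of 36 genes (rows) in each mouse (columns) from its mean over the 10 mice, in log2(CPM + 0.5); red is above and blue below the mean, a vertical line separates the genotypes and horizontal lines the ligands, receptors and atypical receptors. The column of Pax7Cre mouse 5 is blue for most genes, with a median of -0.29, and the strongest red cell is *Cxcl9* in miR-501KO mouse 1.

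Other genes of the pathway were read from fixed lists, and none of those tested passed an unadjusted p of 0.05 in either direction. A list of 9 ligands and binders, of which only *Xcl1* is also in the set, had a median log2 fold change of 0.08, with 7 above 0. They include *Pf4*, the platelet and macrophage chemokine *Cxcl4*, at 49.8 ± 18.0 and 52.4 ± 7.35 CPM (log2 fold change 0.07), and *Ccrl2*, which presents chemerin, at 6.09 ± 2.41 and 6.43 ± 0.679 CPM (0.08). *Mif*, a cytokine that binds *Cd74* and *Cxcr4*, was at 58.7 ± 15.7 and 66.3 ± 5.81 CPM (log2 fold change 0.17, edgeR p 0.260). *Cd74*, the invariant chain of MHC class II, was at 1175, 1518, 729, 1067 and 966 CPM in the Pax7Cre mice and at 1246, 1201, 985, 1054 and 1304 CPM in the miR-501KO mice. All miR-501KO values of *Cd74* were within the Pax7Cre range, with a log2 fold change of 0.09 (SE 0.17).

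The 9 genes that process ligands, such as the proteases *Dpp4*, *Adam10*, *Adam17* and *Mmp9*, had a median log2 fold change of -0.01, with 4 above 0. The 25 genes of receptor signalling, from the inhibitory G protein subunit *Gnai2* to the arrestins and *Dock2*, had a median of -0.0027, with 12 above 0. Of 16 inducers, cytokines and transcription factors that switch chemokine genes on or off, 14 were tested, with a median of 0.04 and 8 above 0. *Il6* and *Ifng* did not pass the filter on low counts. Among the cell type markers, 1 of 90 tested (1.11%) passed an unadjusted p of 0.05, close to the 1.05% of all genes. It was the dendritic cell marker *Cd209a*, at 11.3 ± 1.88 and 8.74 ± 1.63 CPM (log2 fold change -0.37, edgeR p 0.0256, adjusted p 1.00).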

How the data were processed

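Stranded mRNA libraries were made from the TA muscle of 10 mice. The authors deposited unnormalized counts per Ensembl gene, 1 table per mouse. The submitters' processing notes name STAR, featureCounts, R 3.5.1 and GRCm38.p5; the strand setting and the handling of reads matching several genes are not given in the sources used here. Totals were 18609222 to 24753258 counts per mouse. Symbols came from GENCODE M21 (GRCm38), which held 25664 of the 25700 identifiers, while 36 had no match. Genotypes came from the labels. Within a genotype, libraries were compared in pairs, and each pair differed beyond counting error (chi-square per degree of freedom at least 9.47).

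In R 4.3.3, edgeR 4.0.16 gave TMM factors, filterByExpr (minimum count 10, minimum total 15) kept 14410 genes, and the quasi-likelihood test was adjusted by Benjamini-Hochberg over all of them. An exact two-sided permutation test was run on CPM of every gene. On simulated data with 14410 genes, the edgeR quasi-likelihood test recovered 87.5% of 200 genes changed 2-fold between 5 and 5 mice. The 200 were drawn at random from all genes tested, whose median CV was 13.0%, against 29.1% in the set. The recovered share therefore does not apply to the set, for which recovery was not measured. The deletion itself was not analysed here. Alternatives were other size factors and filters, a replicate block, DESeq2 1.42.0, other edgeR tests, and left-out mice.

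All 37 genes enter every count and sum, but 1 of them and 1 pathway gene are not reported one by one. Values per mouse were printed for the 6 ligands and 4 receptors with the highest level per length, each atypical receptor, the 3 smallest p-values in each direction, *Ccl2*, *Ccr2*, *Cx3cl1*, *Cx3cr1*, *Cxcl12* and *Cxcr4*, and of the pathway lists *Pf4*, *Ccrl2*, *Mif* and *Cd74* were named. *Irf1*, *Tnf*, *Nfkbia*, *Il1b*, *Il10* and *Cd209a* were named after their values were seen. The genes and lists were chosen with earlier results of these data known. Intervals of counts cover counting error only, and p-values the spread between these mice.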

Additional observations from a re-analysis of the deposited data

Results flagged for a closer look

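In 3 of 74 groups of 5 mice (37 genes in each genotype), 1 mouse stood apart from the other 4 by Dixon's criterion at 95%, where chance gives about 3.7 groups, and 2 of the 3 are given here. *Ccl12*, a monocyte attractant of the *Ccl2* cluster, was at 13.3 CPM in Pax7Cre mouse 1, and at 5.17 to 7.29 CPM in the other Pax7Cre mice. *Ccl3*, a ligand of *Ccr1*, was at 13.9 CPM in miR-501KO mouse 3, and at 5.85 to 7.79 CPM in the other miR-501KO mice. *Cxcl9* of miR-501KO mouse 1 did not meet the criterion.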

How the results depend on the processing

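No gene of the set passed an adjusted p of 0.05 except *Cxcl9* under edgeR's likelihood ratio test with trended dispersion, which called 19 of all genes; the other alternatives called 0. At an unadjusted p of 0.05, the 55 higher genes became 36 with library size only, 153 without a filter, 36 with at least 10 counts in every mouse, 123 under the likelihood ratio test, 279 without Pax7Cre mice 2 and 4, and 2 at a p of 0.01, and the 96 lower genes became 159 without a filter, 252 without those mice and 7 at a p of 0.01. At an adjusted p of 0.05 both were 0. Of the set, the likelihood ratio test called 2 higher (*Cxcl9*, *Cxcl10*) and 1 lower (*Ccl11*), and leaving out Pax7Cre mice 2 and 4 called 1 higher. Of the pathway lists, the likelihood ratio test called 1 lower, and without those mice 1 was higher and 1 lower. The cause of these shifts was not tested.

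The labels number the mice but do not say that equal numbers are paired. Deviations of mice with the same number correlated at 0.39, -0.18, 0.17, -0.35 and 0.26 for numbers 1 to 5. These mixed values do not settle whether the mice were paired. The replicate block gave 87 higher genes, of which 2 were in the set, *Cxcl9* (log2 fold change 0.64, unadjusted edgeR p 0.00282) and *Cxcl10* (0.41, 0.0152), both with an adjusted p of 1.00, and moved the log2 fold change of *Cxcl14* to 0.056.

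Leaving out each mouse gave 39 to 267 higher and 59 to 242 lower genes, the highest counts without Pax7Cre mouse 2 (267 higher, 186 lower) or 4 (228 higher, 242 lower) and the lowest count of lower genes without miR-501KO mouse 1. In the set it gave 0 to 1 higher (*Cxcl9* without Pax7Cre mouse 1 or miR-501KO mouse 4, *Cxcl1* without miR-501KO mouse 5) and 0 to 1 lower (*Ccr2* without Pax7Cre mouse 5). In the pathway lists it gave 0 to 2 higher (2 without Pax7Cre mouse 4) and 0 to 1 lower (1 without Pax7Cre mouse 2).

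Of 20 named genes, 9 kept their sign in every setting tried. The log2 fold changes that changed sign follow. For *Ackr3* they were -0.00072 (DESeq2 size factors), -0.011 (library size only), -0.00029 (unfiltered), -0.0034 (10 or more counts in each mouse), -0.00085 (DESeq2) and -0.011 (newer quasi-likelihood form). With library size only and with the newer form, *Ccl2* was at -0.00031 and -0.00022, and *Cxcl16* at -0.015 and -0.015. Without Pax7Cre mice 2 and 4, *Ccr3* was at 0.028, *Cxcl14* at 0.30 and *Cxcl16* at -0.037. With 1 mouse left out, the ranges were -0.44 to 0.021 for *Ackr2*, -0.12 to 0.16 for *Ackr3*, -0.47 to 0.027 for *Ccl11*, -0.10 to 0.20 for *Ccl2*, -0.054 to 0.26 for *Ccl5*, -0.022 to 0.099 for *Ccl6*, -0.27 to 0.13 for *Ccl8*, -0.031 to 0.20 for *Cx3cl1*, -0.15 to 0.33 for *Cxcl14* and -0.043 to 0.067 for *Cxcl16*. Depth limits *Cxcl1*, *Xcl1*, *Ccl4*, *Ccr3*, *Ccr9*, *Cxcr6*, *Ccl24*, *Ackr2* and *Ackr4*, whose counts fell below 50 in some mouse.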
